A study of Bos indicus x Bos taurus with 17 samples.

Results

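LSAMP, NTM, OPCML and NEGR1 encode members of the IgLON family, cell surface adhesion proteins that were taken by gene symbol from gene counts of fetal liver and skeletal muscle. All 4 named genes had a row among the 21048 genes listed per tissue. The family was chosen by the liver counts of LSAMP in libraries from among these, in which it had been found high after assisted reproduction. Its liver difference is therefore given here as a description with no test. The fetuses were F1 crosses of Nelore (Bos taurus indicus) and Holstein (Bos taurus taurus), collected at about day 105 and labelled Healthy. Control-AI fetuses were conceived by artificial insemination, and ART-Normal fetuses by assisted reproductive technology, with a body weight under the cut-off that the study set for overgrowth from the control fetuses. Both groups share the cross and the stage, and no genetic modification or further agent is named for either. Each of 6 fetuses, ART-Normal 1 to 4 and Control-AI 2 and 4, supplied liver and muscle, which gave 12 libraries with 1 library per fetus and tissue. ART-Normal 4 is named in the sample labels and is not in the study's list of fetuses.

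IgLON proteins carry immunoglobulin-like domains and are held on the outer face of the plasma membrane by a glycosylphosphatidylinositol (GPI) anchor. They bind one another in like and unlike pairs, on the same cell or across cell contacts, and are best known from neurons, where they act on neurite outgrowth and synapse formation. LSAMP was named for the limbic system, NTM encodes neurotrimin, OPCML encodes an opioid-binding protein-like adhesion molecule, and NEGR1 encodes neuronal growth regulator 1. A further family member, IGLON5, was not part of the choice and is given for comparison.

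The 4 genes are among the longest in the cattle genome. On the ARS-UCD1.2 build, LSAMP (gene 100336456) lies on the minus strand of chromosome 1 from 60476761 to 61192322, a span of 715562 bp that ranks 115 among the 21048 listed genes. NEGR1 (gene 781106) lies on the plus strand of chromosome 3 from 72811994 to 73846989, a span of 1034996 bp with rank 51. OPCML (gene 281957) and NTM (gene 534414) are direct neighbours on chromosome 29 and lie on opposite strands. OPCML extends from 33454438 to 34527270 on the plus strand (1072833 bp, rank 41), and NTM from 34575766 to 35540401 on the minus strand (964636 bp, rank 61). The median span of all listed genes was 17620 bp, and reads were counted over whole spans, so intronic reads are included in every value. The listed spans of LSAMP, NTM and NEGR1 overlap no other listed gene. OPCML overlaps HIST1H4D on the opposite strand, which had 0 counts in every one of the 12 libraries. Levels below are CPM, read counts scaled to library size with TMM factors found within each tissue, and since the counted spans differ and hold introns, they are compared between samples and not between genes.

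Liver libraries held 18454088 to 43339598 counts and muscle libraries 12433300 to 23578362. All 10 listed hepatocyte markers were higher in liver and all 10 listed skeletal muscle fibre markers were higher in muscle. Control-AI 2 stood apart in both tissues: hepatocyte markers summed to 347341 CPM in its liver library against 35075 to 66703 CPM in the other 5. In the same fetus, muscle fibre markers reached 42.0 CPM in liver, against 7.56 to 10.2 CPM in the other liver libraries, and hepatocyte markers reached 422 CPM in muscle, against 27.2 to 70.2 CPM in the other muscle libraries. Results that rest on this fetus are therefore also given without it. The study's methods take the RNA-seq of control fetuses from earlier work, whereas the sample labels list both controls with the ART-Normal libraries, and a difference in when or how libraries were made cannot be told apart from the conception group.

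LSAMP, a neuronal adhesion gene by its usual description, was higher in the liver of ART-Normal than of Control-AI fetuses, the pattern by which it was chosen. In the livers of ART-Normal 1 to 4, in that order, LSAMP stood at 42.5, 59.0, 50.4 and 19.4 CPM. The control livers stood at 11.2 CPM (Control-AI 2) and 12.7 CPM (Control-AI 4). ART-Normal 4, whose library was not among those on which LSAMP was earlier called, was the lowest of its group and lay above both controls. Those controls were part of the earlier contrast, so this too is a description with no test. These levels rest on 602 to 2805 reads in ART-Normal and on 162 and 312 reads in the controls. The group mean was 42.8 ± 17.0 CPM (SD, n = 4) in ART-Normal and 11.9 ± 1.06 CPM (SD, n = 2) in Control-AI, a log2 fold change of 1.84 (standard error 0.39) or 3.58-fold. Among all 11304 genes tested in liver, this log2 fold change ranked 4 from the top, and 9.23% of those genes had all ART-Normal livers above both controls. No conclusion is drawn from that background, because the same contrast chose LSAMP. The log2 fold change was 1.76 (standard error 0.50) without Control-AI 2 and 2.08 (standard error 0.20) without ART-Normal 4, and the values without any 1 library ran from 1.64 to 2.08. In bulk tissue, fewer cells of a type and less RNA per cell cannot be told apart.

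**Figure D1:**
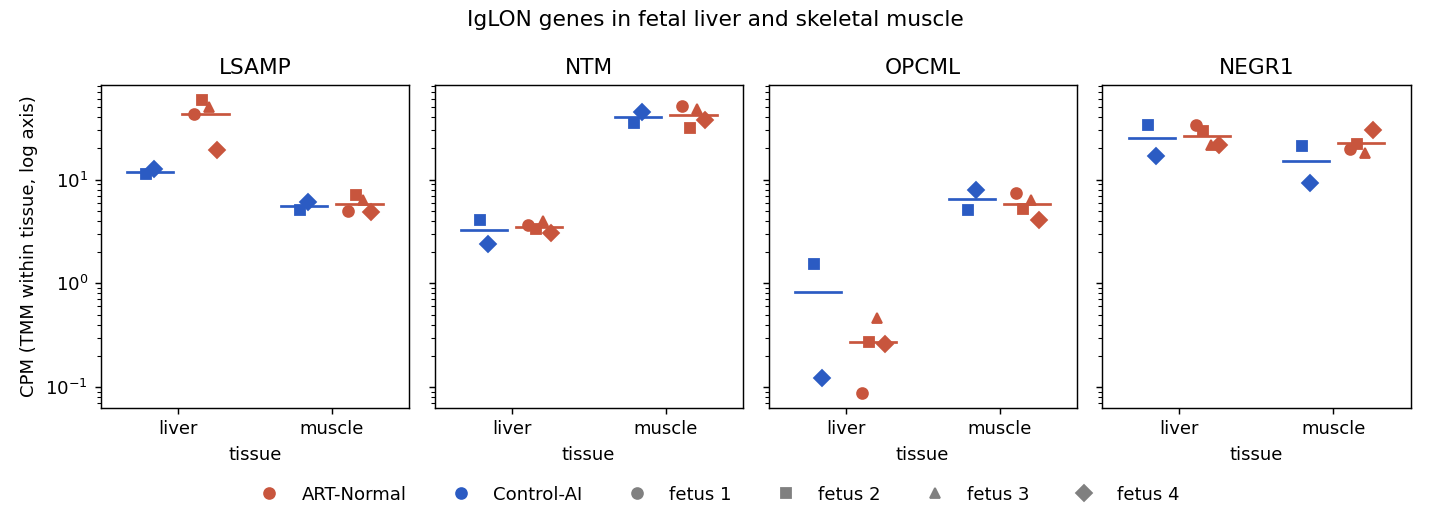
Levels of the 4 IgLON genes in CPM (TMM within each tissue, log axis) in liver and muscle, with ART-Normal fetuses in red, Control-AI fetuses in blue, 1 point per library and a line at each group mean. Marker shapes give the fetus number within a group, and the same number in both groups stands for different fetuses. The 4 ART-Normal livers lie at 19.4 to 59.0 CPM of LSAMP, above both controls, while the groups overlap for LSAMP in muscle and in the other panels.

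Markers of other cell types were measured beside LSAMP in the liver libraries. The hepatocyte list summed to 35075 to 60275 CPM in ART-Normal and to 66703 and 347341 CPM in Control-AI, and the erythroid list to 4866 to 5512 CPM against 5899 and 23262 CPM, so that both were lower in all 4 ART-Normal livers. The fibroblast and stellate cell list, with 11 of 11 genes detected, summed to 1065 to 1307 CPM in ART-Normal and overlapped the 886 and 1479 CPM of the controls. Endothelial markers (735 to 826 CPM against 818 and 841 CPM) and macrophage markers (351 to 446 CPM against 436 and 507 CPM) overlapped as well. The nerve and Schwann cell list, with 9 to 12 of its 15 genes detected, summed to 322 to 342 CPM in ART-Normal and to 306 and 315 CPM in the controls. That sum was thus higher in all 4 ART-Normal livers. ERBB3 and MBP, which other cells also express, made up most of it. MBP had 150 to 198 CPM in ART-Normal against 128 to 141 CPM in the controls, while ERBB3 overlapped (133 to 175 against 144 to 165 CPM). TUBB3 ran the other way, at 0.04 to 0.80 CPM against 1.02 to 3.59 CPM. CDH19 had 0 counts in all 6 livers, and SOX10, a defining factor of Schwann cells, reached at most 0.15 CPM. The part of these cell types in the LSAMP difference was not tested.

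The genes next to LSAMP did not share its liver pattern. GAP43, a growth cone protein gene on the opposite strand at lower coordinates, had 0.74 to 1.77 CPM in ART-Normal livers, against 1.93 and 1.42 CPM for Control-AI 2 and 4. IGSF11, an immunoglobulin superfamily gene on the same strand at higher coordinates, had 20.1 to 30.3 CPM in ART-Normal livers and 28.1 and 20.6 CPM in the controls. Both neighbours thus overlapped between the conception groups.

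NEGR1 was the other IgLON gene above the filter of 5 CPM in liver. Its liver level was 33.4, 29.3, 21.3 and 21.7 CPM across ART-Normal 1 to 4, against 33.4 and 16.8 CPM for Control-AI 2 and 4. The controls lay at the top and at the bottom of this range, so the groups overlapped. The log2 fold change of NEGR1 in liver was 0.08 (standard error 0.29), and it depended on the control used, at 0.66 without Control-AI 2 and -0.34 without Control-AI 4.

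NTM and OPCML were low in liver and fell below the filter, so they entered no filtered fit of the conception groups there. NTM had 3.67, 3.32, 4.02 and 3.06 CPM in the livers of ART-Normal 1 to 4, against 4.08 and 2.40 CPM for Control-AI 2 and 4. Without a filter, the fitted log2 fold change in liver was 0.16 (standard error 0.34) for NTM and -1.51 (standard error 1.04) for OPCML. OPCML was close to the limit of detection in liver, with 2, 13, 12 and 8 reads in ART-Normal 1 to 4 and 22 and 3 reads in Control-AI 2 and 4. The highest OPCML value, 1.52 CPM in Control-AI 2, came from the liver library in which muscle fibre markers were also highest. Whether the 2 are linked was not tested. For both genes the conception groups overlapped in liver.

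In muscle, which was not used to choose LSAMP, none of the 4 genes passed the test between ART-Normal and Control-AI. By edgeR's quasi-likelihood test with Benjamini-Hochberg adjustment, 0 of 4 members had an adjusted p of 0.05 or lower, against 0.00855% of all 11695 tested genes. At an unadjusted p under 0.05 were 0 of 4 members and 1075 of all 11695 genes. The likelihood ratio test called 0 of 4 and 120 of all genes, and DESeq2 0 of 4 and 106 of all genes. At such low shares, 0 of 4 was the usual outcome. LSAMP and OPCML passed the filter in muscle only through Control-AI, and a fit without a filter also called 0 of 4, and 1 of all 18202 genes. The groups overlapped for all 4 genes, where 16% of the tested genes had no overlap.

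LSAMP in muscle was at 4.97, 7.05, 6.29 and 4.84 CPM across ART-Normal 1 to 4, against 5.08 and 6.11 CPM for Control-AI 2 and 4. Both controls fell inside the range of the ART-Normal fetuses. Its muscle log2 fold change was 0.04 (95% interval -0.51 to 0.58). LSAMP passed the filter in muscle only through Control-AI, so its test comes from a fit without a filter. That fit gave 0.05 (adjusted p = 0.974 from edgeR). Whether the muscle value differs from that in liver was not tested, since such a test would hold the contrast that chose the gene.

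NTM and OPCML did not separate the groups in muscle either. NTM had 51.1, 31.6, 48.0 and 37.2 CPM across ART-Normal 1 to 4, against 34.9 and 45.2 CPM for Control-AI 2 and 4. NTM gave a log2 fold change of 0.07 (95% interval -0.40 to 0.53, adjusted p = 0.952 from edgeR). OPCML had 7.49, 5.23, 6.29 and 4.11 CPM across ART-Normal 1 to 4, against 5.08 and 7.89 CPM for Control-AI 2 and 4. Its lowest value was in ART-Normal 4 and its highest in Control-AI 4. OPCML gave a log2 fold change of -0.18 (95% interval -0.81 to 0.46). It passed the filter in muscle only through Control-AI, so its test comes from a fit without a filter. That fit gave -0.17 (adjusted p = 0.914 from edgeR).

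NEGR1 had the largest log2 fold change of the 4 genes in muscle, 0.59 (95% interval -0.10 to 1.27), which did not pass the test (edgeR adjusted p = 0.618). The muscle level was 19.7, 22.1, 18.1 and 29.8 CPM across ART-Normal 1 to 4, against 21.0 and 9.29 CPM for Control-AI 2 and 4. Only Control-AI 4 lay below the ART-Normal fetuses, and it was the lowest library for NEGR1 in liver as well. The NEGR1 muscle fold change (log2) came to 0.11 (edgeR adjusted p = 0.863) with Control-AI 4 left out and 1.25 (edgeR adjusted p = 0.311) with Control-AI 2 left out. In both of these fits the lone control was assumed to vary like the ART-Normal fetuses.

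Gene span moved with the difference between the conception groups, and the IgLON genes were read against genes of like span. In muscle the 191 tested genes over 500 kb had a median log2 fold change of 0.49 (interquartile range 0.28 to 0.67), and 93.2% of them were higher in ART-Normal, while the median of all tested genes was 0.0007. NEGR1 lay at percentile 63.4 of this class. LSAMP lay at percentile 7.85, NTM at 9.42 and OPCML at 3.14, below most genes of their length. LSAMP and OPCML had entered that fit only through Control-AI. The long genes stood lowest in the Control-AI 2 muscle library, with a median log2 ratio of -0.68 to the mean of the other muscle libraries. They stood highest in ART-Normal 3, at 0.51. In liver the 137 tested genes over 500 kb had a median log2 fold change of 0.18 (interquartile range -0.01 to 0.31). LSAMP lay at percentile 99.3 of that class, a place favoured by its choice through this contrast, and NEGR1 at percentile 32.1. With Control-AI 2 left out, an alternative chosen after seeing the data, the median of the genes over 500 kb was 0.23 in muscle and 0.22 in liver. LSAMP then lay at percentile 14.5 of its class in muscle and 99.3 in liver, while NEGR1 lay at 98.5 in muscle and 95.7 in liver. The part of gene span in these differences was not tested.

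**Figure D2:**
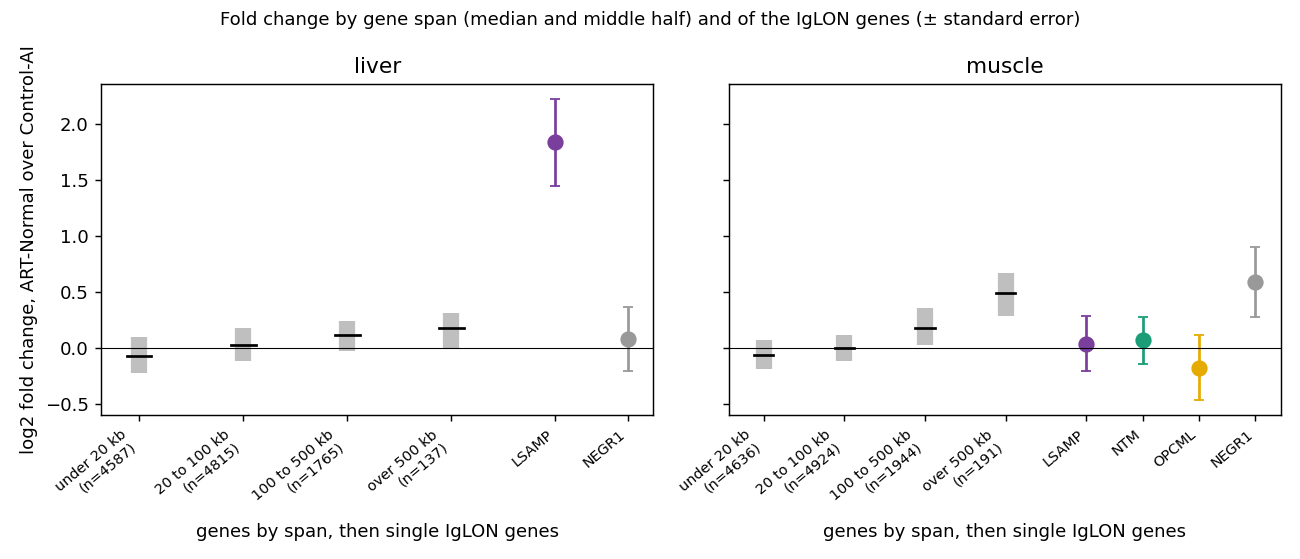
Log2 fold change between ART-Normal and Control-AI (positive where ART-Normal is higher) in liver (left) and muscle (right). Grey bars give the interquartile range and black lines the median of all tested genes in 4 classes of span, and coloured points give the IgLON genes that passed the filter with their standard errors. LSAMP in liver, chosen by this contrast, lies at 1.84, and the median of the class over 500 kb is 0.18. In muscle NEGR1 alone lies near the median of that class, 0.49.

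The 4 genes divided by tissue. LSAMP and NEGR1 were higher in liver, whereas NTM and OPCML were higher in muscle. In a fit over the 12 libraries with the conception group as a covariate, 81.3% of all 12923 tested genes passed at an adjusted p of 0.05 (40.8% higher in liver and 40.5% lower), so a call was the usual outcome, and 64.6% of all genes had no overlap between the tissues. NTM passed the filter only through muscle and OPCML only through the muscle of Control-AI, so a difference between the tissues was built into their entry, and the test given for them comes from a fit without a filter. LSAMP and NEGR1 passed in groups of both tissues. With the fetus Control-AI 2 left out, the log2 difference was -4.49 for OPCML, -3.57 for NTM, 2.67 for LSAMP and 0.49 for NEGR1.

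LSAMP was higher in liver than in muscle in 6 of 6 fetuses. The log2 ratio of liver to muscle within a fetus, on CPM scaled over all 12 libraries, was 3.26, 3.23, 3.15 and 2.14 in ART-Normal 1 to 4, and 1.28 and 1.203 in Control-AI 2 and 4. The ratio was thus above 0 in every fetus and lowest in the controls. The fit gave a log2 difference of 2.48 (standard error 0.34), or 5.57-fold, a description with no test because the ART-Normal livers that chose LSAMP enter it. With the controls fitted alone, the difference was 1.22 (standard error 0.26). This too is a description with no test, since the control livers were part of the contrast that chose LSAMP. The order of the LSAMP levels was ART-Normal liver, Control-AI liver and then muscle, in which the conception groups overlapped.

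NTM was higher in muscle in 6 of 6 fetuses. Its log2 ratio of liver to muscle was -3.63, -3.08, -3.43 and -3.46 in ART-Normal 1 to 4, and -2.95 and -4.09 in Control-AI 2 and 4. The controls lay on either side of the ART-Normal fetuses. The fitted log2 difference of NTM was -3.45 (standard error 0.17), or 10.9-fold, and without a filter on low counts it was -3.47 (adjusted p = 5.01e-11 from edgeR). The fibroblast and stellate cell list summed to 16678 to 21363 CPM in muscle and to 886 to 1479 CPM in liver, and the nerve and Schwann cell list to 290 to 484 CPM in muscle and to 306 to 342 CPM in liver. Their part in the tissue difference of NTM was not tested.

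OPCML was also higher in muscle in 6 of 6 fetuses, with log2 ratios of -6.26, -4.09, -3.63 and -3.85 in ART-Normal 1 to 4, and -1.60 and -5.87 in Control-AI 2 and 4. The wide spread came from liver, where a few reads set the value. The fitted difference was -3.80 (standard error 0.46), or 13.9-fold, and without a filter it was -3.80 (adjusted p = 6.44e-06 from edgeR). With the controls alone the fitted difference of OPCML was -3.01 (standard error 0.98). It is given with no test, since OPCML entered that fit only through control muscle.

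NEGR1 was the most even of the 4 genes across the tissues. Its log2 ratio was 0.93, 0.57, 0.38 and -0.32 in ART-Normal 1 to 4, and 0.82 and 1.01 in Control-AI 2 and 4, so liver was higher in 5 of 6 fetuses. Only ART-Normal 4 had more NEGR1 in muscle, and the tissues overlapped. The fitted difference was 0.55 (standard error 0.23, adjusted p = 0.0398 from edgeR), or 1.47-fold. This call was lost without ART-Normal 1 (adjusted p = 0.133 from edgeR), without ART-Normal 2 (0.089) and without ART-Normal 3 (0.0654), as well as under scaling by library size alone, where the difference was 0.39 (adjusted p = 0.0955 from edgeR). With the fetus as a block, the pairing of both tissues gave an adjusted p of 0.00986 from edgeR.

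**Figure D3:**
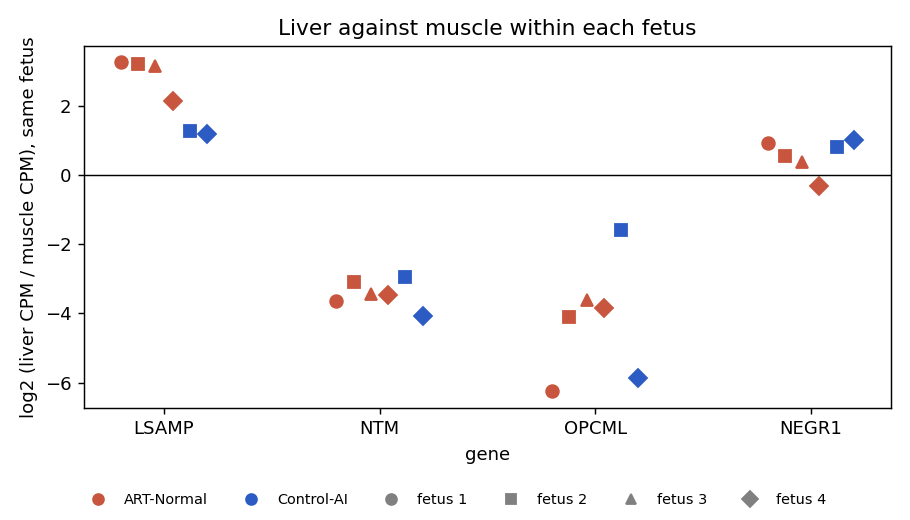
Log2 ratio of liver to muscle CPM (TMM over all 12 libraries) within each of the 6 fetuses, for each IgLON gene, with ART-Normal in red and Control-AI in blue. Values above 0 mean more in liver: LSAMP lies at 1.203 to 3.26, NTM at -4.09 to -2.95, OPCML at -6.26 to -1.60 and NEGR1 at -0.32 to 1.01.

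Genes over 500 kb were, as a class, lower in liver than in muscle, with a median log2 difference of -1.52 over 200 tested genes, and 23% of them were higher in liver. NTM, at percentile 27.5 of the class, and OPCML, at percentile 24.5, had differences common among genes of their length. NEGR1 lay at percentile 84 and LSAMP, whose value holds the livers that chose it, at percentile 94.5.

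The tissues accordingly differed in which IgLON gene gave most of the reads, on a scale of raw reads not divided by length. In liver, LSAMP held 53.3%, 64.2%, 66.1% and 43.7% of the reads of the 4 genes in ART-Normal 1 to 4, and 22.3% and 39.6% in Control-AI 2 and 4. The remainder was nearly all NEGR1, and OPCML held at most 3.03% of the liver reads. In muscle, NTM held 47.9% to 66.0% in the 6 libraries and LSAMP 5.97% to 10.7%. In every muscle library NTM was thus the largest share.

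**Figure D4:**
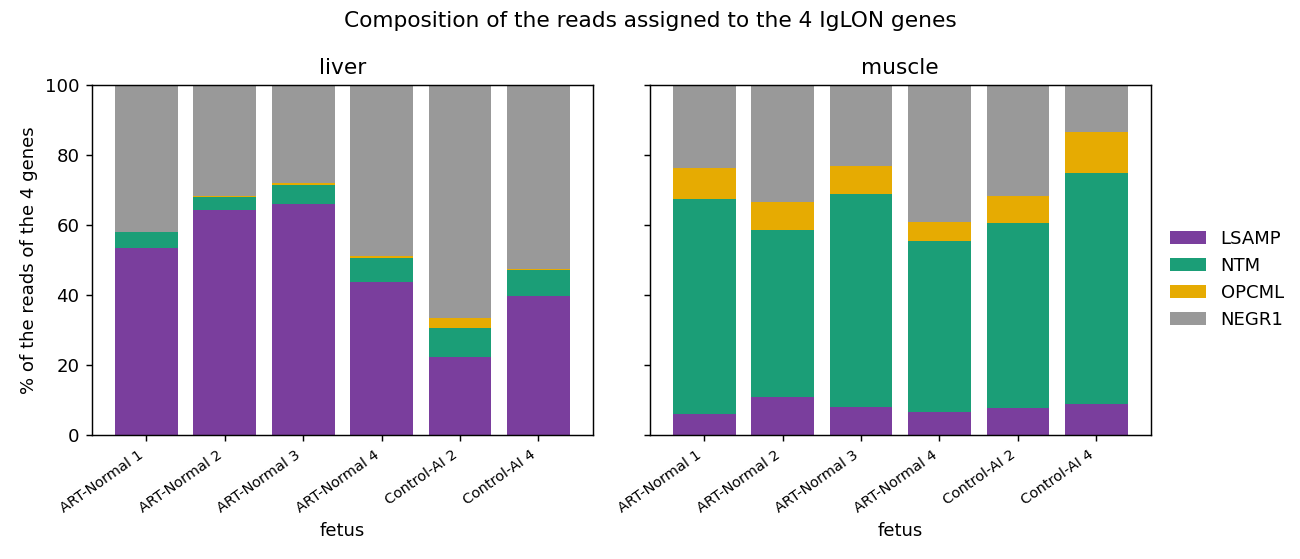
Share of the reads assigned to the 4 IgLON genes, in percent, for each liver (left) and muscle (right) library, without division by gene length. LSAMP and NEGR1 fill most of each liver bar and NTM is the largest part of each muscle bar, at 47.9% to 66.0%.

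IGLON5 was below the filter in both tissues and was not tested. It had 0.31 to 1.58 CPM in liver and 3.64 to 5.47 CPM in muscle. Muscle was higher in 6 of 6 fetuses, the same direction as NTM and OPCML.

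Genes with the most similar pattern over the 12 libraries were found by the root mean square difference of centred log2 CPM, among 12922 other genes. Nearest to LSAMP were AIG1 (0.43), KDM7A (0.47) and SUN3 (0.52). Nearest to NTM were GLI3 (0.15), a transcription factor of Hedgehog signalling, ROR2 (0.19), a receptor for WNT ligands, and CACHD1 (0.20). OPCML was nearest to GLI1 (0.47), KCNIP3 (0.52) and NEURL2 (0.52), and NEGR1 to JADE2 (0.34), PHOSPHO1 (0.35) and COG4 (0.35). The closest match was that of NTM. Within the family, NTM and OPCML were nearest to each other (0.80), LSAMP was nearer to NEGR1 (1.203) than to NTM (2.98), and LSAMP and OPCML were farthest apart (3.41).

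Other adhesion genes of the immunoglobulin superfamily were examined as a list of 29, which includes IGLON5. In muscle 0 of 20 tested genes passed between ART-Normal and Control-AI by edgeR's quasi-likelihood test, with 5 at an unadjusted p under 0.05, where 1075 of all 11695 genes were, and the median log2 fold change was 0.09. DESeq2 called 2 of the 20 and 106 of all genes, and the likelihood ratio test 1 of the 20 and 120 of all genes. In liver 0 of 11 passed by the quasi-likelihood test, with 1 at an unadjusted p under 0.05, where 948 of all 11304 genes were. The likelihood ratio test called 1 of the 11 and 89 of all genes, and DESeq2 called 0 of the 11 and 56 of all genes. The median in liver was 0.06, and of all liver genes 0% passed. Between the tissues, 6 of 22 were higher in liver and 15 in muscle, where 40.8% of all genes were higher in liver and 40.5% lower. The median log2 difference was -2.95 against 0.01 over all genes. The list was not matched for span, and the tested genes over 500 kb had a median of -1.52, with 23% higher in liver. Toward liver, the smallest p-values were those of ALCAM, an activated leukocyte adhesion molecule (log2 difference 2.12), NFASC, which encodes neurofascin (2.90), and CHL1, a relative of L1CAM (2.78). Toward muscle they were those of the contactin CNTN3 (-4.43), MCAM, an adhesion molecule of vessel walls (-5.13), and NCAM1, the neural cell adhesion molecule that is also found on developing muscle fibres (-8.98). LSAMP and NEGR1 were on the side of the smaller group of this list, and NTM and OPCML on that of the larger.

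The GPI anchor that holds IgLON proteins is built and attached by enzymes of the endoplasmic reticulum, examined as a list of 28 genes. By edgeR's quasi-likelihood test 0 of 26 passed between the conception groups in muscle and 0 of 27 in liver, with 2 and 4 at an unadjusted p under 0.05, where 1075 of all 11695 genes were in muscle and 948 of all 11304 in liver. The likelihood ratio test called 1 in muscle and 0 in liver, and DESeq2 0 in both. Of all genes, the likelihood ratio test called 120 in muscle and 89 in liver, and DESeq2 106 and 56. Between the tissues 14 of 27 were higher in liver and 7 in muscle, with a median log2 difference of 0.24 against 0.01 over all genes, of which 40.8% were higher in liver and 40.5% lower. Those with the smallest p-values toward liver were PIGQ (2.79) and PIGW (1.44), which act in early steps of the anchor, and the mannosyltransferase PIGM (1.91). Toward muscle they were PGAP2 (-0.71), which remodels the finished anchor, and PIGU (-0.82) and PIGS (-0.83), subunits of the transamidase that attaches it.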

How the data were processed

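Poly(A)-selected, strand-specific, paired-end RNA-seq libraries of liver and muscle were analysed. The authors deposited raw read counts per gene, without normalization. Per the submitters' processing notes the tools included HISAT2 2.1.0 and featureCounts, with the build ARS-UCD1.2, and the strand setting of the counting is not given in the sources used here. A further 14 count columns matched no sample and were not used. The authors' tables of their own comparisons (fold changes, p-values) were not used.

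Genes reaching 5 CPM in every library of 1 or more groups were tested with edgeR 4.0.16 in R 4.3.3 (TMM, quasi-likelihood test, two-sided, Benjamini-Hochberg over all tested genes, threshold 0.05). Standard errors were computed as the fold change (log2) over the root of F, with intervals from the same fit. Alternatives were RLE factors, library size alone, no filter or 1 CPM, the likelihood ratio test, DESeq2 1.42.0, ART-Normal 1 to 3 only, a replicate block, 1 conception group only, and leaving out each library (or fetus). The members and lists were chosen with earlier results of these data known. Named genes were the members, their neighbours, 3 genes of like pattern each, and per list and direction up to 3 with the smallest p among those called between the tissues. Liver and muscle are paired because each fetus gave both. The reported fit of the tissues did not use this pairing, and the alternative with the fetus as a block did. Scripts were tested on simulated counts. Plots used Python 3.11.15, pandas 2.3.3 and Matplotlib 3.10.9. IgLON sequences were not used here.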

Additional observations from a re-analysis of the deposited data

How the results depend on the processing

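The 4 members kept their side of the threshold in muscle under every alternative, with 0 called. Small fold changes turned sign there: NTM was -0.21 with the replicate block and ran from -0.12 to 0.29 without any 1 library, LSAMP from -0.10 to 0.20, and OPCML from -0.46 to 0.21. In liver the NEGR1 log2 fold change ran from -0.34 to 0.66 without any 1 library, turning negative without ART-Normal 1 (-0.05) and without Control-AI 4 (-0.34). Sign turns without a single library were -0.07 (ART-Normal 2), -0.006 (ART-Normal 3) and -0.10 (Control-AI 2) for LSAMP in muscle, -0.04 (ART-Normal 1), -0.005 (ART-Normal 3) and -0.12 (Control-AI 2) for NTM, and 0.21 (Control-AI 4) for OPCML. The cause was not tested. LSAMP in liver stayed between 1.495 (replicate block) and 2.08. Library size alone moved the median of all liver genes to 0.21, and LSAMP relative to it was 1.82. In the comparison of the tissues that scaling moved the median to -0.13.

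Between the tissues, the call of NEGR1 was lost with the Control-AI fetuses only (edgeR adjusted p = 0.218), where 7320 of all 12709 genes were called. It was also lost with the ART-Normal fetuses only (edgeR adjusted p = 0.0645), where 10073 of all 12676 genes were called. OPCML did not pass the filter in the ART-Normal fetuses. LSAMP is not counted in these fits because liver libraries in them chose it, nor are NTM and OPCML, which entered through muscle alone. Fewer libraries entered both fits. Over all genes, muscle calls between the conception groups were 1 in the comparison as reported, 120 by the likelihood ratio test, 106 by DESeq2, 0 with ART-Normal 1 to 3, 90 with the replicate block, and 0 to 1327 without any 1 library, with 1327 without Control-AI 4. Liver calls were 0 as reported, 8 with library size alone, 89 by the likelihood ratio test, 56 by DESeq2, 2 with ART-Normal 1 to 3, 6 with the replicate block, and 0 to 830 without any 1 library, with 830 without Control-AI 4. Fetus numbers 2 and 4 occur in both conception groups but name different fetuses, so that block has no pairing behind it. Same-numbered libraries deviated from their group means with correlations across genes of 0.02 and -0.13 in liver and -0.03 and -0.19 in muscle. The deviations of 2 controls from their mean mirror each other, so these values are not separate checks of a pairing. The 2 controls, and the few OPCML reads in liver, limit what could be detected.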

Other observations

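The neighbouring genes NTM and OPCML ordered the muscle libraries alike, a pattern chosen after the values were seen and not tested. ART-Normal 1, ART-Normal 3 and Control-AI 4 were the 3 highest muscle libraries of both genes. NEGR1 shared 0 of its 3 highest muscle libraries with either gene. In liver NTM and OPCML shared 2 of 3. TMEM45B, the gene next to NTM on its far side, had 9.13 CPM in the muscle of Control-AI 2 and at most 0.17 CPM in the other 5 muscle libraries, while its liver levels were 9.40 to 20.1 CPM, with Control-AI 2 the highest. NTM itself had 34.9 CPM in that muscle library, within the range of the others.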
